A study of Homo sapiens with 2 samples.

Results

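The EGFR family, the receptor tyrosine kinase MET and 4 of the family's ligands were examined in H4K5ac peak lists from FaDu cells, an established squamous carcinoma line of the head and neck. The 9 members were EGFR, ERBB2, ERBB3, ERBB4, MET, TGFA, AREG, EREG and HBEGF, chosen by RefSeq symbol from 19970 protein-coding genes of the autosomes and the X chromosome. For each one, every peak that overlapped the gene span plus 50 kb on either side was taken, and this stretch is called its window. Chromatin immunoprecipitation with sequencing (ChIP-seq) gave 1 library from cells held in 1% O2 for 18 h (hypoxia) and 1 from cells in normoxia. Both carried the label of histone H4 acetylated at lysine 5, although the series' design text names another mark. The protocol for cell culture speaks of METTL4 knockdown by lentivirus, which no label ties to a library. FaDu is a single cell line, and with 1 library per condition no difference between conditions has a replicate check, so no p-values are given.

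ERBB receptors are cell-surface kinases that pair up when a ligand binds and then signal through the RAS-MAPK and PI3K-AKT pathways. EGFR binds TGFA, AREG, EREG and HBEGF; ERBB2 has no known ligand of its own, ERBB3 has a weak kinase and ERBB4 binds neuregulins. MET is the receptor for hepatocyte growth factor, and both EGFR and MET are well known for their roles in squamous carcinoma of the head and neck. Acetylation of H4 at lysine 5 marks open, active chromatin at gene starts and enhancers.

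The hypoxia list held 258195 peaks and the normoxia list 120033, a ratio of 2.15, so peak numbers of the members are read against that excess. Hypoxia peaks had a median width of 294 bp, with a minimum of 215 bp, and normoxia peaks a median of 356 bp, with a minimum of 245 bp. The authors' fold and p-value of a peak were solved for its summit pileup (the number of reads over the summit) and its local background. The genome-wide background was 3.24 reads in hypoxia and 3.13 in normoxia, which implies 1.18 times as many hypoxia reads if the narrowest widths are the fragment lengths, and 1.04 times if those lengths were equal. Of 7 squamous epithelial marker genes, 6 had a peak at a gene start or end in both lists, beside 69.7% of all protein-coding genes. The exception was TP63, which had none at its 1 listed start but held 51 hypoxia and 34 normoxia peaks in its window. KRT14 and KRT17 share near-identical sequence with other keratin genes, so their peaks are uncertain. Among the markers of other cell types reported here, COL1A1 alone had such a peak in both lists. CD3E, PECAM1 and CDH5 had one in hypoxia only, and PTPRC, PDGFRB, ALB and MLANA in neither. Of all protein-coding genes, 10.7% had one in hypoxia only and 18.8% in neither list. KRT14, KRT17, EPCAM, CDH1, COL1A1, CD3E, PECAM1 and CDH5 have no listed start and were scored at either end of the span.

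ERBB3 has no entry in the set of RefSeq promoters used here, which gives starts on GRCh38.p14 for the other 8 members. The 250 bases before 5 of these starts are shown, because EGFR had the highest start pileup, AREG the highest start fold, and MET and EREG, with AREG, stood apart in peak numbers; the internal EGFR start is a contrast. Capitals mark matches on either strand to ACGTG or GCGTG (core letters of the hypoxia response element), to TGANTCA (the AP-1 site) and to TATAAA. All run 5′ to 3′ on the plus strand, which is the coding strand of these genes, and end at the base before the start.
EGFR first start, chr7:55018767-55019016: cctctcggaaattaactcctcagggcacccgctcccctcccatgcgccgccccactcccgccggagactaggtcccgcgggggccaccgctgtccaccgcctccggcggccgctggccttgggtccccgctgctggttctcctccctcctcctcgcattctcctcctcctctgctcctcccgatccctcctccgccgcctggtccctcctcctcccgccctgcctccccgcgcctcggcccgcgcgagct
EGFR internal start, chr7:55109589-55109838: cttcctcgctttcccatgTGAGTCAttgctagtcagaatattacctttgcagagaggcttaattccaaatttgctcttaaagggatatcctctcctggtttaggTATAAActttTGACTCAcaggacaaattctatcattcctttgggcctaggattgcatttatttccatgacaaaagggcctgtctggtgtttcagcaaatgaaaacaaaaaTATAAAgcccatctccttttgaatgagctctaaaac
MET, chr7:116671946-116672195: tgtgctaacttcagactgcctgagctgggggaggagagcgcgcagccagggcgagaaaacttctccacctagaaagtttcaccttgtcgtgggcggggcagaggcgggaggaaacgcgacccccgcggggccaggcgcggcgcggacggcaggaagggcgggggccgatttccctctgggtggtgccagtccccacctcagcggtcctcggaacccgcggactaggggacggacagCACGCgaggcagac
AREG, chr4:74444886-74445135: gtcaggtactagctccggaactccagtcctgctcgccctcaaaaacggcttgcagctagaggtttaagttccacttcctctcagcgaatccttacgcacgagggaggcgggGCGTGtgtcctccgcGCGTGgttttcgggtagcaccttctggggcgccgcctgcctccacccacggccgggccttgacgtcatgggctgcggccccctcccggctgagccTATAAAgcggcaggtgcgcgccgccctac
EREG, chr4:74364895-74365144: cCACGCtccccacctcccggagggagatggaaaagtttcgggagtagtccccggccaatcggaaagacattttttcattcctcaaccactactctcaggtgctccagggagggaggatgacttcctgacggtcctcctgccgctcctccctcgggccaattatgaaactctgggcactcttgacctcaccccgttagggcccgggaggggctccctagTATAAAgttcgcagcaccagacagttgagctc
The sequence before the first EGFR start was 73.6% G or C and held no match in capitals, whereas the one before the internal start was 38.8% G or C and held 2 TGANTCA and 2 TATAAA matches. The sequence before the AREG start had 2 GCGTG matches, at 139 and 124 bases before the start, and a TATAAA match at 29 bases. MET had 1 GCGTG match, at 14 bases, and EREG had 1 at 249 bases and a TATAAA match at 32 bases. Over the 10 promoter windows (the 250 bases before a listed start) of the 8 members, 5 held GCGTG and none held ACGTG. Of 35116 promoter windows of the same length, 43.2% held either motif, 6.57% held TGANTCA and 10.7% held TATAAA. These matches describe letters only.

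All 9 members carried an H4K5ac peak at a gene start in both hypoxia and normoxia, or at an end of the span in the case of ERBB3. Among all protein-coding genes 80.4% had such a peak in hypoxia and 70.5% in normoxia; 69.7% had one in both lists, 10.7% in the hypoxia list alone and 0.846% in the normoxia list alone. Every member kept its start peak in both lists when peaks were limited to strong ones, meaning a −log10 q-value of at least 10, and when the distance was set to 500 bp. The start peaks are given below with the authors' fold, which is relative to the background of the same library and does not measure a change, and with the derived pileup.

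EGFR, the receptor targeted by the antibody cetuximab (chromosome 7, 55019017 to 55211628, plus strand), had the highest start pileup of the members. Its peak at the first start ran from 55018477 to 55020465 in hypoxia and from 55018729 to 55020475 in normoxia. The summit held 242 reads in hypoxia (95% Poisson interval 212 to 274) and 188 in normoxia (162 to 217). The local background there was also high, at 45 reads in hypoxia and 42.3 in normoxia, and the folds were 5.28 and 4.37. Both summits lay downstream of the start, by 605 bp in hypoxia and 1109 bp in normoxia. The internal start lacked a peak over itself, and the nearest peak began downstream of it, with a summit pileup of 63 reads in hypoxia and 83 in normoxia. At the internal start the pileup intervals overlapped (48.4 to 80.6 in hypoxia, 66.1 to 103 in normoxia), and the fold was 3.75 in hypoxia and 3.37 in normoxia.

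MET (chromosome 7, 116672196 to 116798377, plus strand) had 145 reads at its start summit in hypoxia (122 to 171) and 105 in normoxia (85.9 to 127). The MET start had a fold of 10.8 in hypoxia, against 6.85 in normoxia. The hypoxia summit lay 82 bp before the start and the normoxia summit 370 bp after it. ERBB2 (chromosome 17, 39688094 to 39728658, plus strand) had 127 reads in hypoxia and 76 in normoxia at its listed start. That start is 37 bp from the start of PGAP3 on the other strand, so the peak cannot be given to ERBB2 alone. A second ERBB2 peak, with its summit 12.3 kb into the span in hypoxia and 12.2 kb in normoxia, had 132 reads in hypoxia and 120 in normoxia. ERBB3 (chromosome 12, 56080108 to 56103505) had a pair of peaks at its low-coordinate end, with 121 and 55 reads in hypoxia and 85 and 57 in normoxia. Its other end lies 1054 bp from the start of PA2G4 and the peaks there may belong to that gene. ERBB4 (chromosome 2, 211375717 to 212538802, minus strand) had the weakest start, with 34 reads in hypoxia (23.5 to 47.5) and 29 in normoxia (19.4 to 41.6). A hypoxia peak of 998 bp covered the start, with a second of 788 bp next to it inside the gene, and a single normoxia peak of 1494 bp covered the start and overlapped both.

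Among the ligands, AREG (chromosome 4, 74445136 to 74455005, plus strand) had the highest start fold of the 9 members in both lists. AREG encodes amphiregulin, and its start fold was 16.1 in hypoxia and 9.75 in normoxia. Its summit held 105 reads in hypoxia (85.9 to 127) and 90 in normoxia (72.4 to 111), on a background of 5.59 and 8.33 reads. Both summits lay downstream of the start, by 185 bp in hypoxia and 230 bp in normoxia, beyond the GCGTG pair shown above. EREG, which encodes epiregulin (chromosome 4, 74365145 to 74388749, plus strand), had 97 reads in hypoxia (78.7 to 118) and 60 in normoxia (45.8 to 77.2). TGFA, the gene of transforming growth factor alpha (chromosome 2, 70447284 to 70553826, minus strand), had 126 reads in hypoxia and 95 in normoxia. In hypoxia a single TGFA peak of 2175 bp covered both of its listed starts, whereas in normoxia the same stretch held 2 peaks of 1505 and 540 bp. HBEGF, the gene of heparin-binding EGF-like growth factor (chromosome 5, 140332843 to 140346603, minus strand), had 89 reads in hypoxia and 63 in normoxia.

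At the highest-fold start peak of each list, the pileup was higher in hypoxia for all 8 members with a listed start, with a median ratio of 1.35. The background share is of the same size: 92.2% of 11337 genes with a listed start and a peak there in both lists had the higher pileup in hypoxia, with a median ratio of 1.43. The fold was also higher in hypoxia for all 8, as it was for 90.1% of those genes. The peak near the internal EGFR start, which had a lower fold, is not among these 8 and held 63 reads in hypoxia and 83 in normoxia. The largest pileup ratio was that of ERBB2, at 1.67 (95% counting interval 1.25 to 2.25), and the next was that of EREG, at 1.62 (1.16 to 2.27). For ERBB4 (0.693 to 1.99) and AREG (0.872 to 1.56) the interval included equal pileups. A summit is the highest point of a peak and pileup grows with depth and fragment length, and these intervals cover counting error only.

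**Figure D1:**
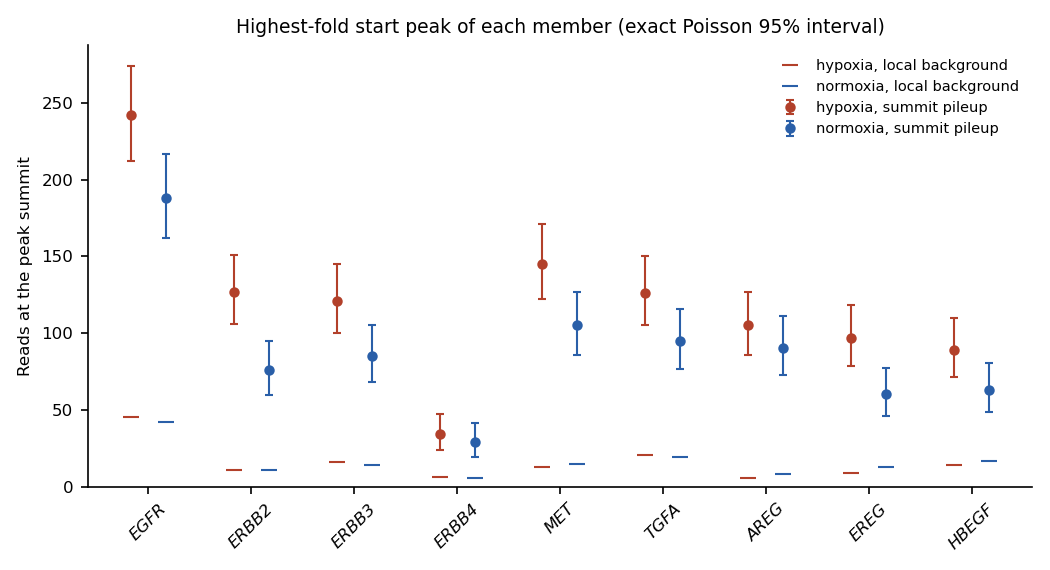
Reads at the summit of the highest-fold start peak of each member, with exact Poisson 95% intervals, and the local background as dashes; hypoxia is left of normoxia. EGFR is highest, with 242 reads in hypoxia and 188 in normoxia, ERBB4 is lowest, with 34 and 29, and ERBB3 is shown at its low-coordinate end.

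As a group, the members' windows had a smaller excess of hypoxia peaks than the median gene, a difference for which no test was made. Together they held 225 hypoxia and 163 normoxia peaks, each counted once, a ratio of 1.38 (95% counting interval 1.12 to 1.70) against 2.15 for the whole lists. The median ratio over the 9 members was 1.45, and over 18979 genes with any normoxia peak in the window it was 1.93 (quartiles 1.5 and 2.57). Among genes with at least 10 normoxia peaks the medians were 1.38 for 8 members and 1.71 for 9479 genes. Covered length differed less, at 105 kb in hypoxia and 93.1 kb in normoxia. When only the 120033 hypoxia peaks of lowest q-value were kept, to equal the normoxia list, the windows held 136 hypoxia and 163 normoxia peaks, a ratio of 0.834 (0.660 to 1.05), and the median over members was 0.80 against 1.00 for all genes.

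More hypoxia than normoxia peaks were found in 6 of the 9 members, beside 93.0% of all protein-coding genes. EGFR had 74 hypoxia peaks (95% Poisson interval 58.1 to 92.9) and 48 normoxia peaks (35.4 to 63.6), a ratio of 1.54 (1.06 to 2.27). That ratio lay below the 1.93 of the median gene, which its interval included. ERBB4 had 21 and 7, a ratio of 3.0 (1.23 to 8.35). TGFA had 29 hypoxia and 20 normoxia peaks, HBEGF 19 and 12, ERBB2 21 and 14, and ERBB3 21 and 16. EGFR was the most densely marked of the 9 windows, with 25.3 hypoxia and 16.4 normoxia peaks per 100 kb of window, and ERBB4, in a window of 1263 kb, the least, with 1.66 and 0.554. The windows of ERBB2 and ERBB3 also hold 7 and 8 other protein-coding genes. Their starts carried 4 and 9 of the hypoxia peaks and 4 and 6 of the normoxia peaks. Peaks that also lay at a start or end of the member are left out of these numbers. Examples are the ERBB2 start peaks beside PGAP3 and a normoxia peak between ERBB3 and PA2G4.

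MET, AREG and EREG had fewer peaks in hypoxia than in normoxia. MET had 25 hypoxia and 27 normoxia peaks, AREG 7 and 11, and EREG 13 and 16, and each ratio's interval included 1. Only 2.43% of all protein-coding genes had fewer hypoxia than normoxia peaks, and 1.89% of those with at least 10 normoxia peaks. AREG and EREG are not separate cases, since their windows overlap by 43614 bp and share 5 hypoxia and 8 normoxia peaks. The direction depended on the window for MET, EREG and HBEGF: with 100 kb flanks MET had 39 hypoxia and 34 normoxia peaks, while AREG, with 13 and 15, and EREG, with 15 and 18, still had fewer in hypoxia. In the bare gene spans MET had 16 and 15, EREG 5 and 4, HBEGF 2 and 3, and AREG 2 of each. Over bare spans 6.01% of all genes had fewer hypoxia peaks, and with 100 kb flanks 1.62%. With equal list lengths the numbers were 16 and 27 for MET, 5 and 11 for AREG and 10 and 16 for EREG, but 40.7% of all genes then had fewer hypoxia peaks.

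**Figure D2:**
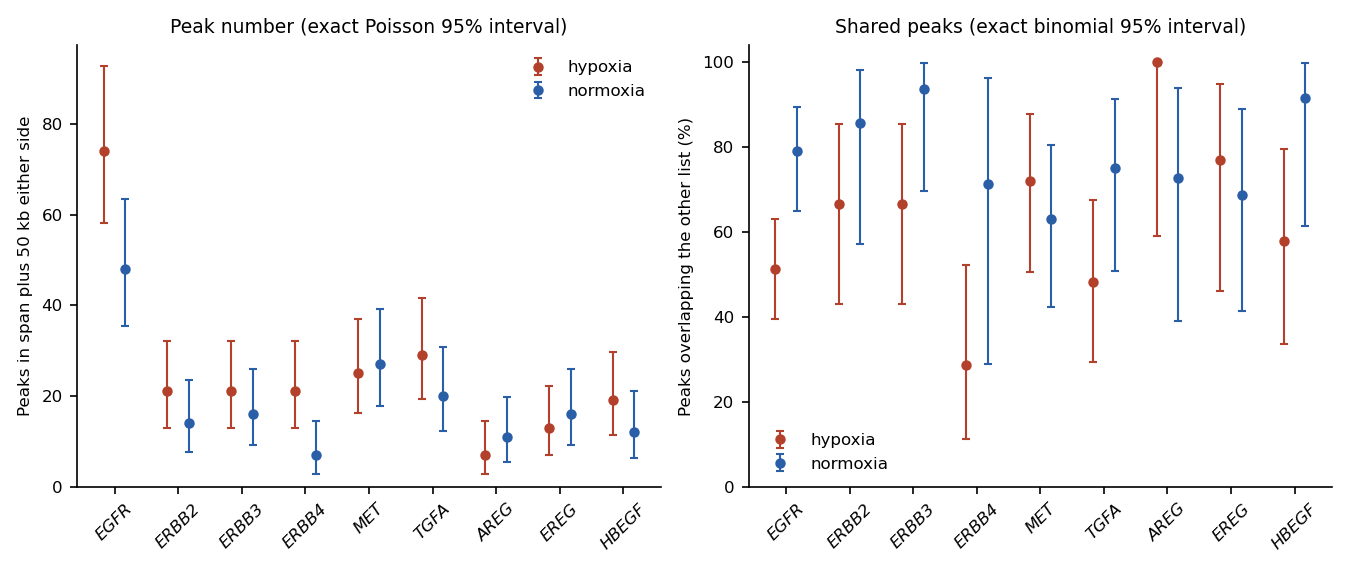
Left, number of peaks in each window with exact Poisson 95% intervals; right, percent of these peaks that overlap a peak of the other list with exact binomial 95% intervals, hypoxia left of normoxia. EGFR stands highest, with 74 hypoxia and 48 normoxia peaks, while MET, AREG and EREG have fewer peaks in hypoxia.

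The windows held 79 strong hypoxia peaks and 56 strong normoxia peaks, a ratio of 1.41 (0.989 to 2.02) against 1.63 for the whole lists. No member had fewer strong peaks in hypoxia, 6 had more and 3 had equal numbers. These counts are near the shares of all genes, of which 65.1% had more and 5.66% fewer. EGFR accounted for most of the difference, with 28 strong peaks in hypoxia and 13 in normoxia. MET had 8 in each list, AREG 3 and EREG 5. The others were HBEGF with 7 hypoxia and 4 normoxia strong peaks, TGFA with 9 and 7, ERBB3 with 10 and 9, ERBB2 with 9 and 8, and ERBB4 with 2 and 1.

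Most member peaks of either list overlapped a peak of the other condition. Of 225 hypoxia peaks, 127 overlapped a normoxia peak by at least 1 bp (56.4%, exact binomial interval 49.7 to 63.0%), against 32.7% of the whole hypoxia list. Of 163 normoxia peaks, 126 overlapped a hypoxia peak (77.3%, 70.1 to 83.5%), against 68.7% of the whole normoxia list. For strong peaks the shares were 88.6% in hypoxia and 96.4% in normoxia, close to 86.6% and 98.3% of strong peaks genome-wide. In hypoxia the overlapped share ran from 28.6% for ERBB4 to all 7 peaks for AREG, and in normoxia from 63.0% for MET to 93.8% for ERBB3. MET, AREG and EREG were the members whose hypoxia peaks were overlapped more often than their normoxia peaks. This is not a separate trait, because they are also the members with fewer hypoxia peaks. The overlapped numbers were close, at 18 in hypoxia and 17 in normoxia for MET, 7 and 8 for AREG, and 10 and 11 for EREG. Shared peaks were wider, with medians of 477 bp (hypoxia) and 501 bp (normoxia), and peaks of 1 list alone measured 271 and 299 bp.

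Of 9 strong peaks of the hypoxia list alone, EGFR held 7, all of them inside the gene. Their summits lay between 48.1 and 168 kb downstream of the first start. The strongest ran from 55186821 to 55187229, with a fold of 4.21, a −log10 q-value of 20.4 and 68 reads at the summit, and lay 507 bp from the nearest normoxia peak. The next, from 55122138 to 55122603, had 48 reads and lay 598 bp from one, and the third, from 55160985 to 55161577, had 45 reads with the nearest normoxia peak 13585 bp away. The remaining pair lay before the MET start, at -33.8 kb (116638193 to 116638776, 25 reads) and 7.13 kb into TGFA (70546530 to 70546802, 30 reads). Away from its start, the strongest EGFR signal in both lists lay 115 kb downstream, as 1 hypoxia peak of 1375 bp with 186 reads and 2 normoxia peaks with 147 and 135 reads. Exons and introns were not distinguished here.

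Strong peaks of the normoxia list alone numbered 2. The first lay at -23.2 kb from the EGFR start (54995659 to 54996204, fold 5.23, 57 reads), 577 bp from a hypoxia peak. The second lay at -37.2 kb from the EREG start (74327606 to 74328286, fold 5.91, 32 reads), 178 bp from one. The other peaks of 1 list alone were weaker. In MET the strongest normoxia-only peaks had 31, 24 and 24 reads and lay 261, 20 and 316 bp from a hypoxia peak. In AREG the strongest had 19 reads and lay 276 bp from one, and AREG had no hypoxia-only peak. In ERBB4 the 3 strongest hypoxia-only peaks had 20, 17 and 17 reads, and 2 of them lay 94541 and 127958 bp from any normoxia peak. The strongest peaks of 1 list alone in ERBB2, ERBB3 and HBEGF were weak too, with −log10 q-values of at most 6.70 in hypoxia and 6.10 in normoxia.

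**Figure D3:**
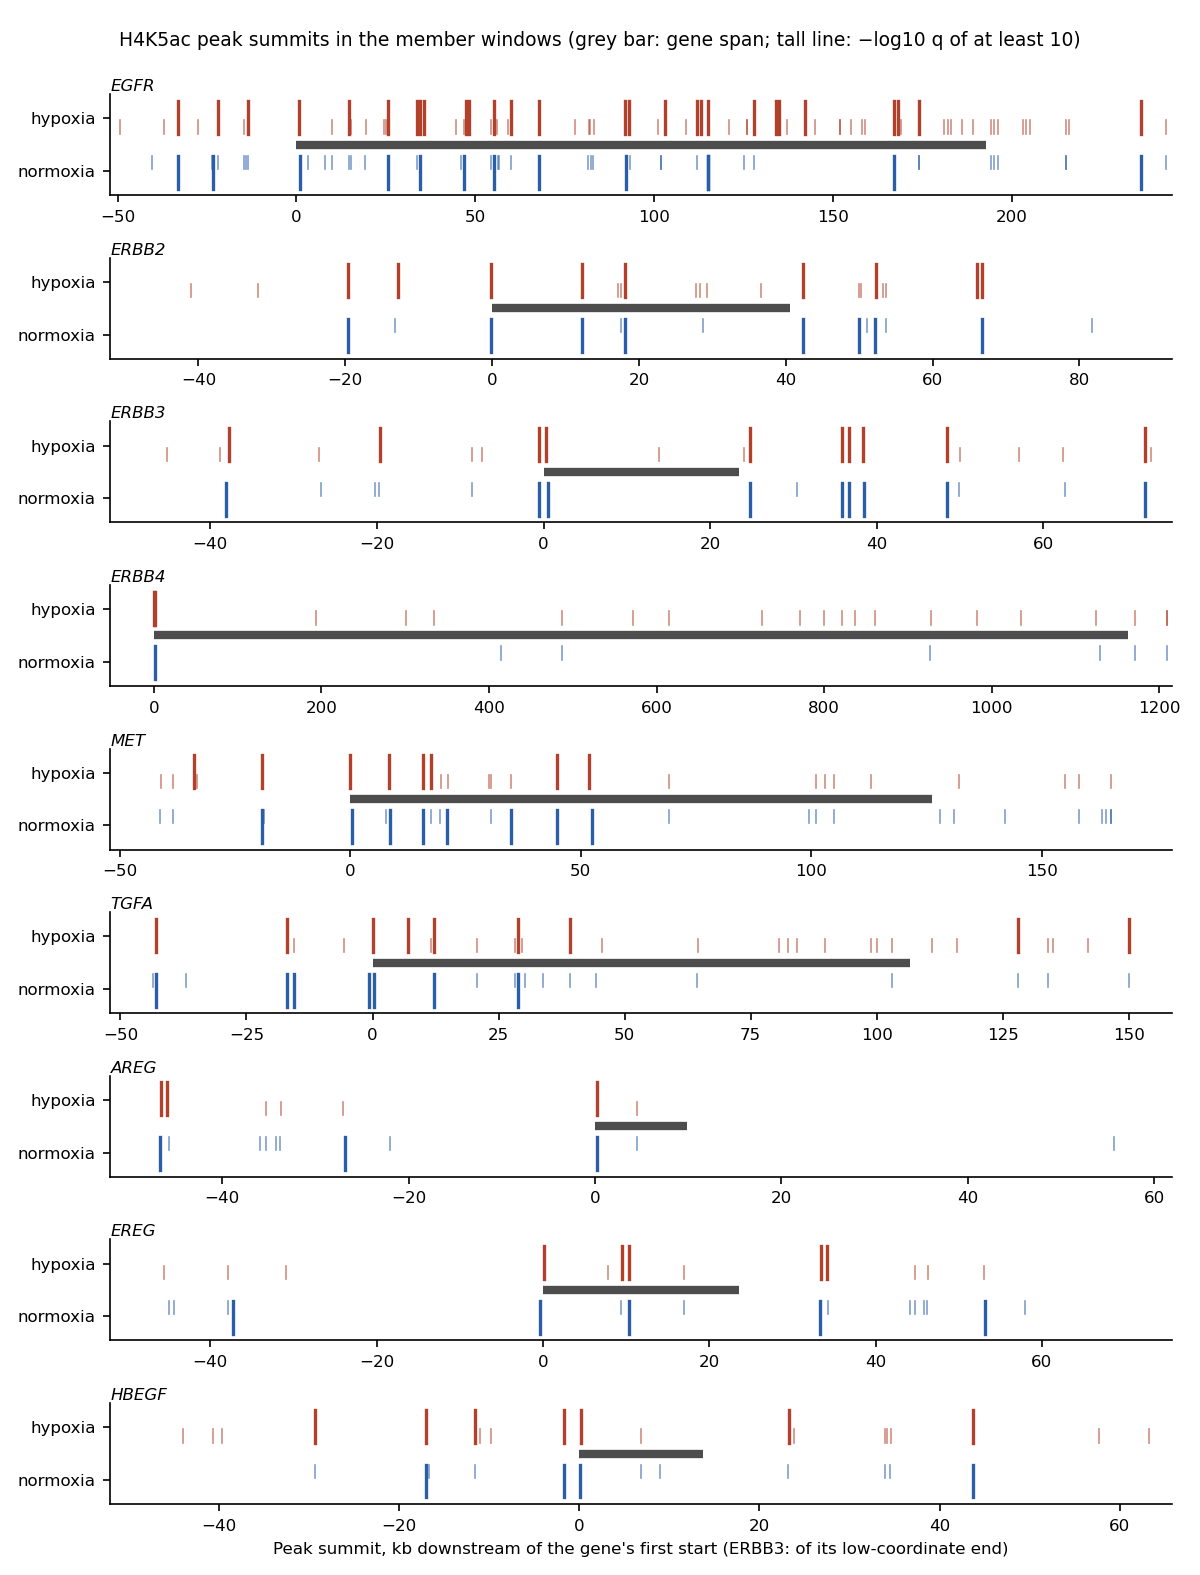
Summits of all peaks in the 9 windows, in kb downstream of each gene's first start (ERBB3: its low-coordinate end), hypoxia above and normoxia below the grey gene span; tall lines are strong peaks. The EGFR window, flanks included, carries 28 strong peaks in hypoxia and 13 in normoxia, while ERBB4 has strong peaks only at its start.

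The members had 96 one-to-one pairs, in which a hypoxia and a normoxia peak overlapped each other and no other peak. Because overlap defines a pair, short distances between summits are in part given by the choice. The median distance between summits was 47.5 bp, and 87 of them lay within 250 bp; genome-wide the median was 61.0 bp in 69577 pairs and 91.2% lay within 250 bp. The hypoxia peak was the wider in 33 of 96 member pairs and in 43.5% of all pairs. The hypoxia summit held more reads in 56 of 96 member pairs (median ratio 1.09), beside 72.8% of all pairs (1.27). By the fold over local background, 74 of the 96 pairs were higher in hypoxia (median ratio 1.20). A genome-wide share by fold is given below for pairs away from starts only. At gene starts the hypoxia summit held more reads in 15 of 19 pairs in the windows (1.29), beside 88.3% genome-wide (1.41). Of these 19 pairs, 9 lay at starts of neighbouring genes only, and at starts or ends of the members it was 8 of 10 pairs (1.37). These 10 include a pair between ERBB3 and PA2G4, with 146 reads in hypoxia and 108 in normoxia. Only the normoxia peak of that pair was close enough to count at the ERBB3 end. Its hypoxia peak counted at the start of a neighbour, so the pair may belong to PA2G4. The largest shifts were 504 bp at the first EGFR start, 486 bp in MET and 483 bp in ERBB2.

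In MET, pairs away from gene starts mostly had lower pileups in hypoxia, but their folds were balanced. In 13 of 15 such MET pairs the hypoxia summit held fewer reads, with a median ratio of 0.652. By the fold over local background, 8 of the 15 were higher in hypoxia, with a median ratio of 1.01, beside 74.5% of all pairs away from starts and a median of 1.19. For example, a peak 34.9 kb into MET in normoxia had 23 reads in hypoxia and 55 in normoxia, one 15.7 kb in had 33 and 56, and one at -19.1 kb had 24 and 38. The 2 exceptions had 48 reads in hypoxia and 36 in normoxia, and 115 and 76. The one with 115 reads (116723977 to 116725026 in hypoxia, 51.9 kb into the gene) had a fold of 17.4 in hypoxia and 8.54 in normoxia and a −log10 q-value of 102 in hypoxia, above that of the MET start. Genome-wide, 68.6% of 54762 pairs away from starts had the higher pileup in hypoxia, with a median ratio of 1.22 (quartiles 0.953 and 1.55). Among 31400 such pairs with normoxia pileups from 18 to 76 reads, the range of MET, the share was 63.7% and the median 1.17. The median local background of MET peaks was 3.40 reads in hypoxia and 6.42 in normoxia, which is 0.814 and 1.27 times the median of each list, and the part of this in the result was not tested.

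In AREG and EREG, 1 of 7 pairs away from starts had the higher pileup in hypoxia, with a median ratio of 0.903, while 5 of the 7 had the higher fold in hypoxia. Some of these pileups differed little, such as 19 reads in hypoxia and 20 in normoxia, or 43 and 44. In EGFR, 17 of 25 such pairs had the higher pileup in hypoxia, with a median ratio of 1.20, and 20 of 25 the higher fold. Over all members, 41 of 77 pairs away from starts had the higher pileup in hypoxia, with a median ratio of 1.03. By the fold, 56 of these 77 pairs were higher in hypoxia, beside 74.5% of all pairs away from starts, so the lower share was seen in pileup only. Without MET, AREG and EREG, 38 of 55 pairs had the higher pileup in hypoxia, with a median of 1.13. Those members were set apart by their values in these data, so the nearness of the rest to the genome-wide 68.6% is in part given by that choice. All pairs of a window come from the same 2 libraries, so they are not replicates, and no test of a difference between members was made.

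**Figure D4:**
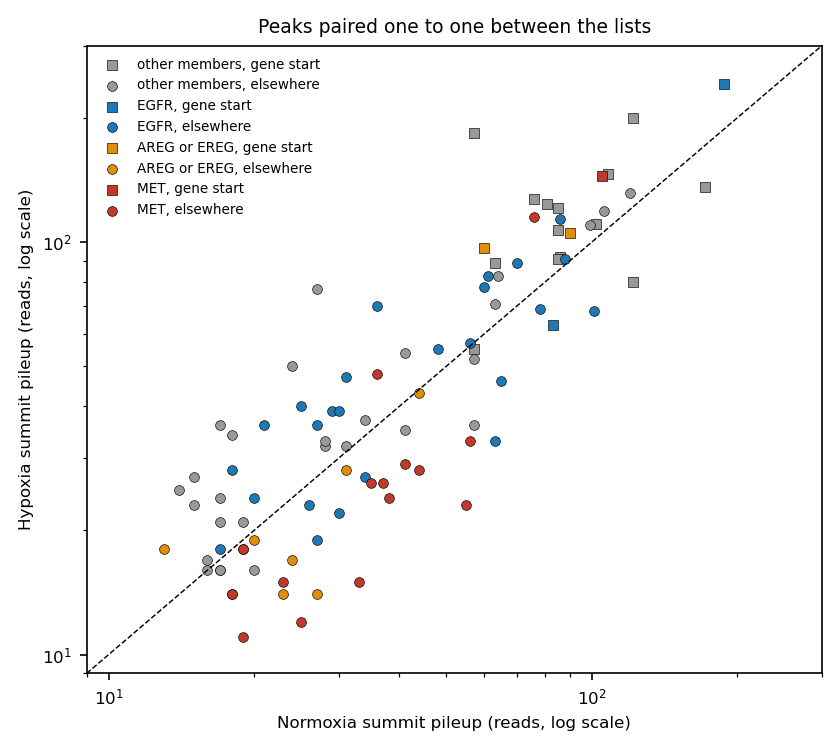
Summit pileup in hypoxia against normoxia for the 96 one-to-one pairs, on log axes; squares are pairs at gene starts, circles lie elsewhere, and the dashed line marks equal pileups. In MET, 13 of 15 pairs away from starts lie below the line, although 8 of the 15 had the higher fold in hypoxia, and its start lies above it with 145 reads in hypoxia and 105 in normoxia.

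Local backgrounds differed between the windows and bear on the folds. The median background of EGFR peaks was 9.55 reads in hypoxia and 11.8 in normoxia, 2.29 and 2.33 times the median of each list. In ERBB2 it was 16.3 and 13.4 reads, and in ERBB3 12.3 and 13.6. In ERBB4 it was 3.24 and 3.13 reads, the genome-wide floor of each library. At the median background, a fold of the same size therefore stands for more reads in EGFR, ERBB2 and ERBB3 than in ERBB4 or MET. This does not hold for every peak. In hypoxia the local background was 12.5 reads at the MET start and 10.6 at the ERBB2 start.

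The other genes of the pathway were mostly marked at their starts in both conditions. Of 49 genes, 43 (87.8%) had a start or end peak in both lists, 2 in the hypoxia list alone, 1 in the normoxia list alone and 3 in no list, beside the 69.7% in both among all genes. All 20 adaptors and transducers and all 14 feedback inhibitors were marked in both. Among the transducers the highest hypoxia folds belonged to the RAS gene NRAS (14.4 in hypoxia, 10.4 in normoxia), the PI3K regulatory subunit gene PIK3R1 (13.1 and 7.58) and the kinase gene BRAF (13.0 and 9.34). Among the feedback inhibitors they belonged to SPRED1 (12 and 7.64), the ubiquitin ligase gene CBLB (10.3 and 7.20) and the phosphatase gene PTPN1 (9.90 and 5.73). The median hypoxia to normoxia ratio of window peaks was 1.67 over the 49 genes, with 42 above and 5 below equal numbers. Among all protein-coding genes the median was 1.93, and 93.0% had more and 2.43% fewer hypoxia peaks.

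The unmarked genes were mainly ligands. Of 8 further ligands, 4 were marked in both lists: BTC, encoding betacellulin (fold 12.7 in hypoxia, 9.03 in normoxia), and the neuregulin genes NRG1 (6.57 and 5.09), NRG2 (5.46 and 4.75) and NRG4 (4.95 and 6.68), the last named after its values were seen. EGF was marked in normoxia only, by a weak peak of 14 reads, and the neuregulin gene NRG3 in hypoxia only, by one of 18 reads. HGF, the ligand of MET, and EPGN, the epigen gene next to EREG, were marked in neither. Of 7 proteases and inhibitors, 5 were marked in both, led by ADAM17, the sheddase that releases TGFA and AREG (9.98 and 6.52), ADAM10 (8.98 and 6.08) and ST14 (8.52 and 6.5). HPN, which encodes the HGF-activating protease hepsin, was marked in hypoxia only (fold 2.98), and HGFAC in neither. The median window ratio was 1.00 for the ligands and 2.06 for the proteases and inhibitors. The ligand median rests in part on few peaks. BTC had 1 in each list, HGF had 4 in each, and EGF and EPGN each had 4 in hypoxia and 5 in normoxia. EPGN also reaches into the window of EREG, so it is not a separate case. For 11 of the 49 genes no start is listed and both ends of the span were used.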

How the data were processed

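H4K5ac ChIP-seq libraries of 75 bp single-end reads were made from FaDu cells in hypoxia and in normoxia, 1 each. The authors deposited 1 peak list per library on hg38; MACS2 and SICER are named per the submitters' processing notes, without versions or settings. Whether a control library entered the calls is not given in the sources used here. The deposited columns are a score (10 times the −log10 p-value, rounded down), a fold (ratio to local background), a −log10 p-value and a −log10 q-value. The deposited lists include 29 hypoxia and 144 normoxia peaks with a q-value above 0.05. Read totals are not given.

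Pileup and background were solved from fold = (pileup + 1) / (background + 1) and a Poisson tail p; pileups came out whole, within 0.02, for 100% of peaks of both lists. If no control was used, the background includes ChIP reads around the peak. Gene spans and starts came from RefSeq tables on GRCh38.p14 (hg38); peaks within 1000 bp of a start, or of either end where no start is listed, counted as start peaks. Genes may have further starts not listed. Overlap meant at least 1 bp. One-to-one pairs overlap each other and no other peak. Intervals are 95% exact Poisson or Clopper-Pearson and cover counting error only; peaks of a library are not replicates.

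The members and gene lists were chosen with earlier results of these data known. One item of the marker list is not reported here. Named genes were all members; pathway genes marked in 1 list or in neither; and up to 3 per role marked in both with the highest hypoxia fold. Named peaks were the highest-fold start peaks and up to 3 strongest peaks of 1 list alone per member, with others named after their values were seen. The solver and the overlap counter were checked on simulated data. Python 3.11.15, numpy 2.4.6, pandas 2.3.3 and scipy 1.17.1 were used. Alternatives varied the q-value, list length, window, overlap rule and start distance.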

Additional observations from a re-analysis of the deposited data

How the results depend on the processing

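Under the alternatives 68 values were computed again, and 24 of them left the interval or the 1.5-fold range around the reported value while 44 did not; the set without the EGFR window was chosen after seeing the data. When both lists were cut to strong peaks, the windows held 79 hypoxia and 56 normoxia peaks with median widths of 694 and 904 bp, covering 58.5 and 53.4 kb, and 64.6% and 87.5% of them overlapped the other list. With equal list lengths the hypoxia number was 136 and the ratio 0.834, and the overlapped shares were 74.3% in hypoxia and 63.2% in normoxia, so their order turned. In the gene spans alone there were 129 hypoxia and 79 normoxia peaks, covering 58.3 and 47.8 kb, of which 46 and 29 were strong. With summits within 250 bp as the rule, the shared portions were 48.4% in hypoxia and 66.3% in normoxia. Setting the −log10 q-value for strong peaks to 5 gave 136 in hypoxia and 91 in normoxia, and setting it to 20 gave 38 and 31. Without the EGFR window the ratio of peak numbers was 1.31, and with peaks within 1000 bp stitched it was 1.41. All 9 members stayed marked in both lists under every alternative tried; of the other pathway genes 42 in hypoxia and 39 in normoxia were marked by strong peaks. No paired analysis was possible because each condition has 1 library. Depth limits weak peaks most: a library's number of calls depends on its reads and fragment length, which cannot be told apart from the condition here.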
